A study of Homo sapiens with 6 samples.

Results

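The genes described here encode the heat shock protein chaperones, the J-domain proteins that work with them and the heat shock transcription factors. They were taken by symbol from a table of FPKM values (fragments scaled to transcript length and library size): every entry whose name begins with DNAJA, DNAJB, DNAJC, HSPA, HSPB, HSPD, HSPE, HSPH, HSP90 or HSF and a number, except DNAJC7. The rule found 63 of the 11456 genes of the table, among them 36 J-domain proteins, 20 chaperones of the HSP classes and 3 heat shock factors. It also took 4 entries that are no chaperone gene of their own: HSPB11, a subunit of the intraflagellar transport machinery of cilia, HSF2BP, a meiotic recombination protein, and the readthrough entries HSPE1-MOB4 and DNAJC25-GNG10. A mean of at least 1 FPKM over all libraries was required for testing, which 59 of the 63 met.

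RNA came from HepG2-hCAR cells. HepG2 is a human liver carcinoma line, and these cells are 1 clone of it that was infected with a lentivirus, selected in puromycin and chosen for strong induction; the virus carries the human cDNA for the constitutive androstane receptor (CAR, encoded by NR1I3) under doxycycline control. Both groups hold this construct: 3 libraries had vehicle and 3 had doxycycline (1 µg/ml), each for 72 h. HepG2 cells lacking the construct were not among the groups, so what the antibiotic does and what the receptor does cannot be told apart. Separate cultures are not stated in the labels, and the p-values therefore reflect the spread among these libraries, which may be technical. NR1I3 stood at 3.15, 3.01 and 3.56 FPKM with vehicle and at 331, 317 and 316 FPKM with doxycycline, in the direction that the labels state, with a 99.2-fold higher mean (log2 difference 6.25, adjusted p = 2.4e-07). Depth is unknown, because FPKM is already scaled to each library, and every value is a share of its library. Of 8 hepatocyte genes, 7 were lower with doxycycline and none was higher (median log2 difference -0.97), and their part in the results below was not tested.

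Chaperones of the HSP70 class bind exposed hydrophobic stretches of unfolded proteins in a cycle of ATP hydrolysis. J-domain proteins bring the client and trigger hydrolysis, and nucleotide exchange factors such as the HSP110 proteins and the BAG proteins release it. HSP90 takes over clients near their native state, nuclear receptors and kinases among them, while HSP60 and HSP10 form the folding chamber of the mitochondrial matrix. Heat shock factors bind the heat shock element, inverted repeats of GAA, in the promoters of cytosolic and mitochondrial chaperones, and chaperones of the endoplasmic reticulum (ER) are instead controlled through the ER stress element. CAR itself is held in the cytoplasm of hepatocytes in a complex with HSP90 and a J-domain protein.

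Promoters of 4 abundant chaperones are shown because they carry these elements. With doxycycline HSP90B1, HSPA5 and HSP90AB1 were called lower, HSP90AA1 was not called, and none of the 4 was called higher. Each is the 200 bases before a transcription start listed by RefSeq on GRCh38.p14, 5′ to 3′ on the strand of the gene, with motif matches in capitals. The capitals mark the ER stress element (CCAAT, any 9 bases, CCACG) in HSP90B1 (chr12:103930210-103930409, plus strand) and HSPA5 (chr9:125241344-125241543, minus strand), and the heat shock element (GAA, TTC and GAA, or TTC, GAA and TTC, each followed by any 2 bases before the next) in HSP90AA1 (chr14:102087045-102087244, minus strand, 1 of its 2 listed windows) and HSP90AB1 (chr6:44247743-44247942, plus strand, 1 of its 3 listed windows). Both strands were searched.
HSP90B1: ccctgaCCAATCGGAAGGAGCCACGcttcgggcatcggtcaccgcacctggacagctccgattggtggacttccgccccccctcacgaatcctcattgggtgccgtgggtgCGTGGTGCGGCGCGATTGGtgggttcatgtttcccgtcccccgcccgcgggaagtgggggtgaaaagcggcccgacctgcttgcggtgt
HSPA5: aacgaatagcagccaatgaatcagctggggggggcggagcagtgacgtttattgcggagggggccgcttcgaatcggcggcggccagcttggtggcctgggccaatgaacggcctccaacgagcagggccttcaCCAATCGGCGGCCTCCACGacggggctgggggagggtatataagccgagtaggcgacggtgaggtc
HSP90AA1: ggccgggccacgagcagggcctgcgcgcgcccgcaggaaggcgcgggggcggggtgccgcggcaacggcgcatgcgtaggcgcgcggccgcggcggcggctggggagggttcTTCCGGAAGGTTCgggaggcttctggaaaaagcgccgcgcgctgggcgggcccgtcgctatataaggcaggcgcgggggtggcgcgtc
HSP90AB1: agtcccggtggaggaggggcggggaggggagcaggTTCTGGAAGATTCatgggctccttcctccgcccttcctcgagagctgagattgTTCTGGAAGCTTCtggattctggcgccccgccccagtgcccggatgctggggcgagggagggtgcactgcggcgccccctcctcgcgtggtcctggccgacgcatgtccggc
In HSP90B1 the matches lay 194 to 176 and 89 to 71 bases before the start, the second on the other strand, and in HSPA5 66 to 48 bases before it. In HSP90AA1 the match lay 88 to 76 bases before the start, and in HSP90AB1 there were 2, at 165 to 153 and 112 to 100 bases. For both genes the printed window is the most downstream one listed, and the windows further upstream held no match. For transcripts from those upstream starts, the printed bases lie after the start.

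RefSeq windows of 300 bases, from 250 before to 50 after a start, were used for 55 of the 63 genes, 73 windows in all. Windows of these genes on chromosome 8, where HSF1 lies, were left out, while the comparison windows of all genes include that chromosome. The heat shock element was present in 6 of the 73 (8.22%), those of HSP90AA1, HSP90AB1, HSPA8, HSPD1, DNAJA1 and DNAJB6, against 172 of 35116 windows of all genes (0.490%). The ER stress element was present in 2 of the 73 (2.74%), HSP90B1 and HSPA5, against 27 of 35116 (0.0769%). Many of those 35116 windows belong to genes not tested here. Among the 11947 windows of tested genes the shares were 0.318% for the heat shock element and 0.142% for the ER stress element. A match is a description of these letters and not a measured binding site. Only exact matches were counted, so elements that depart from these letters were missed. A window of DNAJB1, which rose, holds a stretch that differs from the heat shock motif only in its last letter and was not counted. By call, the heat shock element was found in 1 of 8 matched genes that rose with doxycycline, in 2 of 7 that fell and in 3 of 38 that were not called. Under quantile normalization the 2 that fell, HSP90AB1 and HSPD1, are higher instead.

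With doxycycline, 10 of the 59 tested genes rose and 7 fell at an adjusted p below 0.05 (limma on log2(FPKM + 1)). These 17 of 59 stand beside a background of 28.8% of all 10469 tested genes called, 15.2% higher and 13.6% lower and the family's own share was the same, so the count of calls is no result about these genes. The median log2 difference of the 59 was 0.04, against 0.01 over all tested genes. The groups did not overlap for 24 of the 59 (15 higher, 9 lower with doxycycline), beside 47.1% of all tested genes, and all 17 called genes were among these 24. The changes were small: only HSPB8 among the called genes differed by 2-fold or more in mean FPKM. For 28 of the 42 tested genes that were not called, the 95% interval of the log2 difference lay within 0.3 of 0. Under quantile normalization, 12 rose and 4 fell (75% of calls higher, against 58.8%).

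Calls were counted by family and compartment, with no test of a difference between classes. Over all 10469 tested genes 28.8% were called, 15.2% higher and 13.6% lower. Called shares were 62.5% for DNAJB genes, 12.5% for DNAJC genes and 22.9% for all J-domain genes. They were 44.4% for all HSP chaperones, 12.5% for HSP70 genes, 33.3% for HSP110 genes and 66.7% for HSP90 genes. The small heat shock genes and the HSP60 and HSP10 pair, with 2 tested genes each, had 100%. By compartment the shares were 38.5% for ER, 36.4% for cytosolic and 25% for mitochondrial genes. Of 8 DNAJB genes, 5 rose and none fell (4 and none under quantile normalization). Of the 18 tested HSP chaperones 2 rose and 6 fell, a split that became 5 and 3 under quantile normalization, while none of the 3 heat shock factors and none of the 3 DNAJA genes was called. By compartment, 3 of 13 ER genes rose and 2 fell (2 and 1 under quantile normalization), 5 of 22 tested cytosolic genes rose and 3 fell (7 and 2), and of 8 mitochondrial genes none rose and 2 fell (1 and 1 under quantile normalization). Among the 11 genes with a mean of at least 50 FPKM none rose and 6 fell (median log2 difference -0.13), and of the 48 weaker genes 10 rose and 1 fell. DNAJB1, which rose, had a mean of 49.9 FPKM and lies just under this limit. All 614 tested genes at or above 50 FPKM had a median of -0.05, with 122 higher and 176 lower, and of the 9855 below it 1471 were higher and 1243 lower. Under quantile normalization 3 of the 11 abundant genes rose and 3 fell, so this split depends on the scaling.

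**Figure D1:**
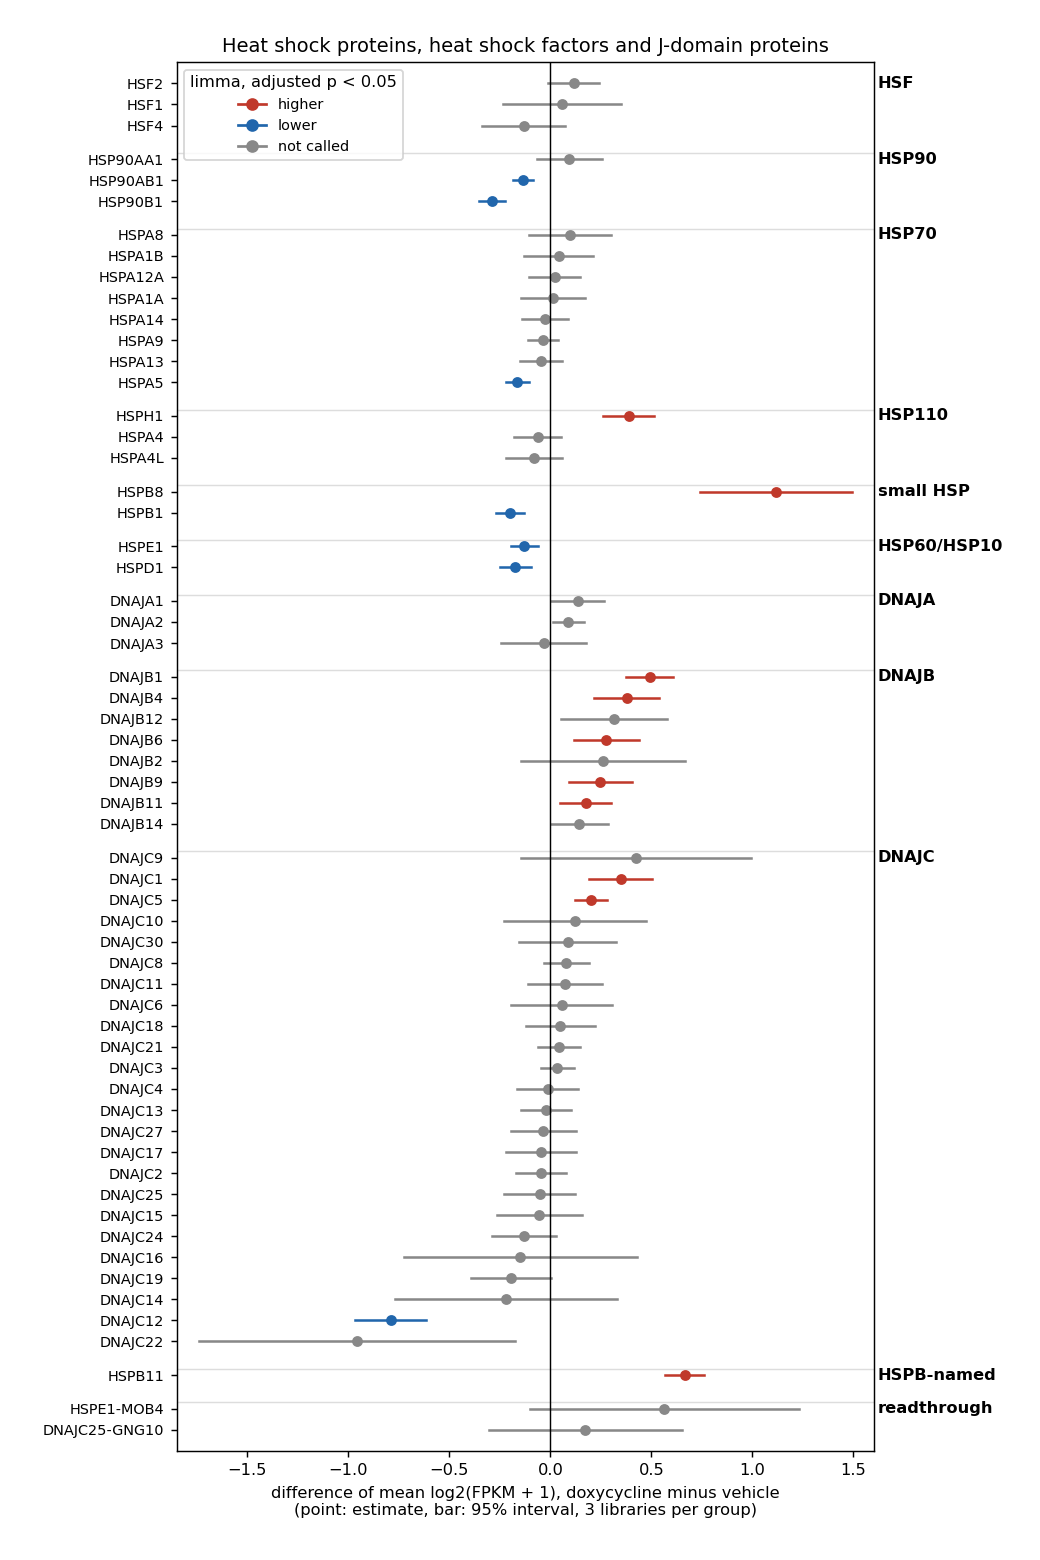
Difference of mean log2(FPKM + 1), doxycycline minus vehicle, for the 59 tested genes by family (points, with 95% intervals as bars, 3 libraries a group; red and blue mark calls at an adjusted p below 0.05). All 8 DNAJB genes lie to the right of 0 and both genes of the HSP60 and HSP10 pair to the left; HSPD1 and HSP90AB1 move to the right of 0 under quantile normalization.

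The heat shock factors were expressed at similar levels in both groups. HSF1, the main activator of the heat shock response, stood at 8.08, 5.70 and 6.78 FPKM with vehicle and at 6.43, 7.42 and 7.52 FPKM with doxycycline. The groups overlapped, and the log2 difference of 0.06 had a 95% interval of -0.24 to 0.35 (adjusted p = 0.760), with a change of sign to -0.05 when vehicle replicate 2 was left out. HSF1 overlaps DGAT1 on the other strand, and the use of strand in the counting is not given in the sources used here. HSF2, a related factor that can pair with HSF1, stood at 7.17, 7.94 and 7.23 FPKM with vehicle and at 7.91, 8.40 and 8.15 FPKM with doxycycline. These ranges overlapped by a small margin (log2 difference 0.12, 95% interval -0.01 to 0.24, adjusted p = 0.149). HSF4, known for its role in the lens, was at 1.46 ± 0.199 FPKM and 1.24 ± 0.141 FPKM (SD, n = 3 each; adjusted p = 0.284). No phosphorylation, trimer or DNA binding of a factor was measured.

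Of the 3 HSP90 genes, HSP90B1 fell, HSP90AB1 fell except under quantile normalization and HSP90AA1 was not called. HSP90AB1 (GRCh37 chromosome 6, 44213903 to 44221625), the constitutive cytosolic form, had the highest level of all 63 genes: 671, 654 and 665 FPKM with vehicle and 599, 611 and 599 FPKM with doxycycline. The groups did not overlap, and the mean was 1.10-fold lower (log2 difference -0.14, adjusted p = 0.00473). Under quantile normalization the sign turned (0.15, adjusted p = 0.0227). Its rank among all genes was 20, 19 and 19 with vehicle and 18, 18 and 18 with doxycycline. HSP90AA1, the stress-inducible cytosolic form, stood at 290.2, 314 and 331 FPKM with vehicle and at 308, 349 and 341 FPKM with doxycycline. These ranges overlapped (log2 difference 0.09, 95% interval -0.07 to 0.25, adjusted p = 0.339), and the gene was called higher only under quantile normalization (0.29, adjusted p = 0.0282). HSP90B1 (chromosome 12, 104323885 to 104347423) encodes GRP94, the HSP90 of the ER, and stood at 229.8, 238 and 239.8 FPKM with vehicle and at 193, 195 and 189.8 FPKM with doxycycline. All doxycycline libraries were below all vehicle libraries, by 1.22-fold in the mean (log2 difference -0.29, SE 0.03, adjusted p = 5.98e-04). It kept its call under every alternative run. It overlaps C12orf73 on the other strand.

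In the HSP70 family, 1 of 8 tested genes fell and none rose (median log2 difference -0.01), or 12.5% called beside 28.8% of all tested genes. That gene was HSPA5, which encodes BiP, the HSP70 of the ER and the carrier of the ER stress element shown above. It stood at 302, 303 and 300.4 FPKM with vehicle and at 263, 274 and 270.0 FPKM with doxycycline. The groups were apart, with a 1.12-fold lower mean (log2 difference -0.17, adjusted p = 0.00363), and under quantile normalization no change was called (-0.02, adjusted p = 0.745). The most abundant HSP70 of the cytosol, the constitutive HSPA8 (HSC70), stood at 153, 145 and 157 FPKM with vehicle and at 143, 170.3 and 175 FPKM with doxycycline. Doxycycline replicate 1 was the lowest of all 6 libraries and the other two were the highest, so the gene was not called (log2 difference 0.10, 95% interval -0.10 to 0.30, adjusted p = 0.430), and it was called higher without that library (0.19, adjusted p = 0.0369).

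HSPA1A and HSPA1B, the near-identical genes of the heat-inducible HSP70, share reads, so their sum is the safer value: 79.6 ± 6.68 FPKM with vehicle and 81.0 ± 3.83 FPKM with doxycycline (SD, n = 3 each). The log2 difference of the sum was 0.03 (95% interval -0.14 to 0.19, adjusted p = 0.795). HSPA9, the HSP70 of the mitochondrial matrix, stood at 121, 121 and 115 FPKM with vehicle and at 116, 114 and 117 FPKM with doxycycline, in overlapping ranges (log2 difference -0.04, 95% interval -0.11 to 0.04, adjusted p = 0.391). HSPA12A, HSPA13 and HSPA14 had log2 differences between -0.05 and 0.02 and were not called, with a change of sign for HSPA12A to -0.02 without doxycycline replicate 3 and to -0.0018 under quantile normalization. HSPA1L, a relative of HSPA1A expressed mainly in testis, stayed below 1 FPKM in all libraries.

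Of the 3 HSP110 genes, which encode exchange factors of HSP70, only HSPH1 was called. HSPH1 (chromosome 13, 31709111 to 31736525), the heat-inducible HSP105, stood at 15.7, 15.8 and 17.3 FPKM with vehicle and at 20.6, 22.4 and 21.8 FPKM with doxycycline. The lowest doxycycline library was above the highest vehicle library, and the mean was 1.33-fold higher (log2 difference 0.39, SE 0.05, adjusted p = 0.00306). HSPA4, the most abundant of the 3, stood at 69.2, 67.1 and 73.0 FPKM with vehicle and at 64.1, 65.8 and 70.3 FPKM with doxycycline, and those ranges overlapped (log2 difference -0.06, 95% interval -0.18 to 0.05, adjusted p = 0.369). HSPA4L was at 6.21 ± 0.287 FPKM and 5.82 ± 0.328 FPKM (adjusted p = 0.333).

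The small heat shock proteins hold unfolded proteins in oligomers without using ATP, and their genes moved apart. HSPB8 (chromosome 12, 119616447 to 119658936), the partner of BAG3 in chaperone-assisted autophagy, stood at 1.23, 2.30 and 1.29 FPKM with vehicle and at 4.60, 4.48 and 4.61 FPKM with doxycycline. The doxycycline libraries lay close together and all above the vehicle libraries, of which replicate 2 was the highest. The mean rose 2.84-fold (log2 difference 1.12, 95% interval 0.74 to 1.50, adjusted p = 0.00337), the largest positive difference of the 59 tested genes. HSPB1 (HSP27, chromosome 7, 75931861 to 75933612), the most abundant small heat shock gene here, stood at 91.3, 87.1 and 89.3 FPKM with vehicle and at 76.9, 76.6 and 79.3 FPKM with doxycycline. It was lower in every doxycycline library than in any vehicle library, by 1.15-fold in the mean (log2 difference -0.20, adjusted p = 0.00391). HSPB2 was too weak to be tested, at 0, 0.0603 and 0.200 FPKM with vehicle and at 0.350, 0.930 and 0.447 FPKM with doxycycline, and it overlaps CRYAB, another small heat shock gene, on the other strand.

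HSPD1 and HSPE1 encode HSP60 and HSP10 and lie head to head on chromosome 2 (198351305 to 198381461 and 198364718 to 198368181). The listed span of HSPE1 lies wholly inside that of HSPD1, on the other strand. Fragments anywhere in HSPE1 could therefore be assigned to either gene, which also limits the ratio given below. HSPD1 stood at 391, 371 and 391 FPKM with vehicle and at 335, 349 and 337 FPKM with doxycycline. HSPE1 stood at 123, 119 and 124 FPKM with vehicle and at 111, 109.9 and 113 FPKM with doxycycline. In neither gene did the groups overlap. HSPD1 was 1.13-fold lower (log2 difference -0.17, adjusted p = 0.00848), but higher under quantile normalization (0.10, adjusted p = 4.91e-04). HSPE1 was 1.10-fold lower (log2 difference -0.13, adjusted p = 0.0159), a call that was lost without vehicle replicate 3 (adjusted p = 0.0552), without doxycycline replicate 1 (0.0524) and without doxycycline replicate 2 (0.0537). The ratio of HSPE1 to HSPD1 was 0.317 ± 0.00303 with vehicle and 0.327 ± 0.0108 with doxycycline (exact permutation p = 0.3). The readthrough entry HSPE1-MOB4 stood at 3.16, 2.24 and 4.49 FPKM and at 5.48, 3.51 and 7.17 FPKM, in overlapping ranges (adjusted p = 0.178), and its fragments cannot be separated from those of HSPE1 here.

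**Figure D2:**
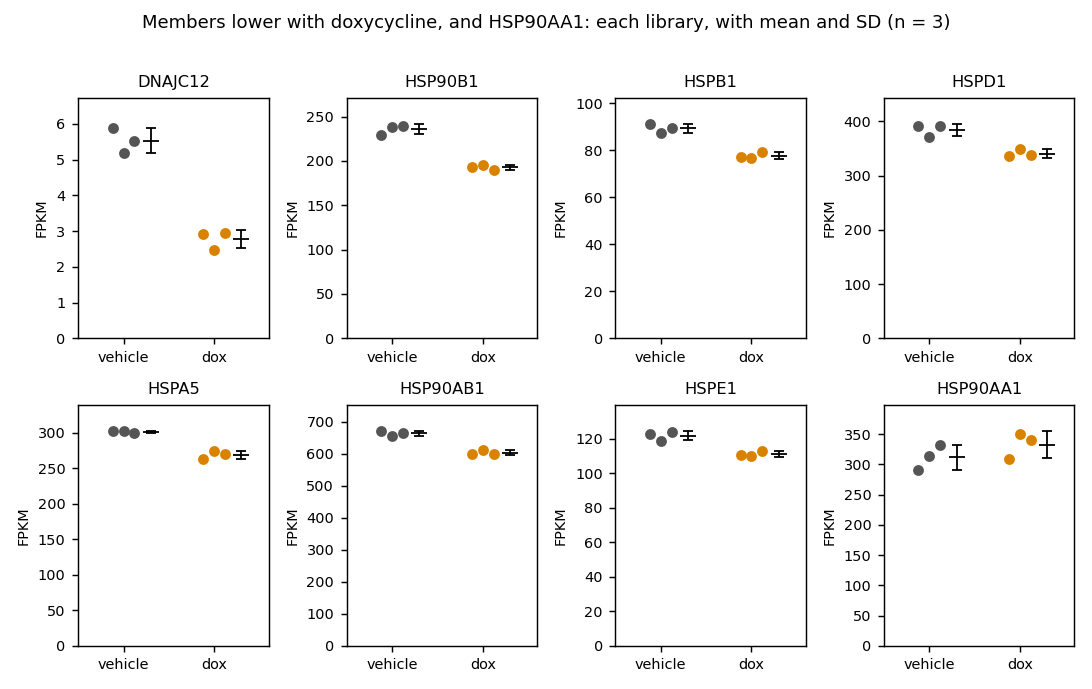
FPKM in each library of the 7 genes called lower with doxycycline and of HSP90AA1, which was not called (points, libraries; lines and bars, mean and SD, n = 3; axes start at 0). DNAJC12 shows the largest relative step, and the other 6 called genes lie 1.10-fold to 1.22-fold apart, while the groups of HSP90AA1 overlap; HSP90AB1 and HSPD1 turn to higher, and HSPA5 is not called, under quantile normalization.

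All 8 DNAJB genes had a positive log2 difference, from 0.14 to 0.49 (median 0.27), and in all 8 every doxycycline library was above every vehicle library. Of all tested genes 51.8% had a positive difference and 24.8% had groups apart in that direction. Of these, 5 passed the test. DNAJB1 (HSP40, chromosome 19, 14625582 to 14640582), the classic heat-inducible partner of HSP70, stood at 41.1, 39.9 and 43.0 FPKM with vehicle and at 55.8, 57.9 and 61.9 FPKM with doxycycline. The gap between the groups was wider than the spread within either, and the mean rose 1.42-fold (log2 difference 0.49, SE 0.05, adjusted p = 8.78e-04). DNAJB1 overlaps TECR on the other strand. DNAJB4, a close relative of DNAJB1, stood at 5.49, 5.98 and 6.60 FPKM with vehicle and at 7.84, 8.23 and 8.25 FPKM with doxycycline. The groups of DNAJB4 were again apart (1.35-fold, log2 difference 0.38, adjusted p = 0.00836). DNAJB4 overlaps GIPC2 on the same strand, so some of its fragments could belong to that gene. DNAJB6, a suppressor of protein aggregation, stood at 5.08, 5.12 and 4.40 FPKM with vehicle and at 5.89, 6.40 and 5.998 FPKM with doxycycline (1.25-fold, log2 difference 0.28, adjusted p = 0.0250). Its call was lost without doxycycline replicate 1, 2 or 3 (adjusted p = 0.0528, 0.0748 and 0.0619).

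The ER holds 4 of these DNAJB proteins. DNAJB9 (ERdj4), a cofactor of BiP in ER-associated degradation, stood at 7.45, 8.15 and 8.55 FPKM with vehicle and at 10.0, 9.13 and 10.1 FPKM with doxycycline (1.21-fold, log2 difference 0.25, adjusted p = 0.0323). DNAJB11 (ERdj3), which brings newly made secretory proteins to BiP, stood at 13.9, 14.5 and 15.1 FPKM with vehicle and at 15.7, 16.5 and 17.4 FPKM with doxycycline (1.14-fold, log2 difference 0.17, adjusted p = 0.0492). In both genes the gap between the groups was narrow. DNAJB11 overlaps AC068631.2 on the same strand and TBCCD1 on the other. DNAJB9 overlaps PNPLA8 and THAP5 on the other strand. The call of DNAJB9 was lost without vehicle replicate 1 or 2 (adjusted p = 0.0758 and 0.0753) and without doxycycline replicate 1 or 3 (0.0932 and 0.0947). That of DNAJB11 was lost without vehicle replicate 1, 2 or 3 (0.128, 0.113 and 0.0626) and without doxycycline replicate 2 or 3 (0.112 and 0.122), under quantile normalization (0.0621) and without the variance trend (0.0587). The membrane proteins DNAJB12 and DNAJB14 were not called (log2 differences 0.32 and 0.14, adjusted p = 0.0762 and 0.121), nor was the cytosolic DNAJB2 (0.26, adjusted p = 0.292). Without vehicle replicate 1 the difference of DNAJB2 was 0.064, and without vehicle replicate 2 that of DNAJB12 was 0.19. Summed over the 8 genes, the level was 84.7, 85.4 and 90.6 FPKM with vehicle and 109.6, 113 and 119 FPKM with doxycycline, 31.0% higher in the mean, with DNAJB1 as the largest part of each sum.

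**Figure D3:**
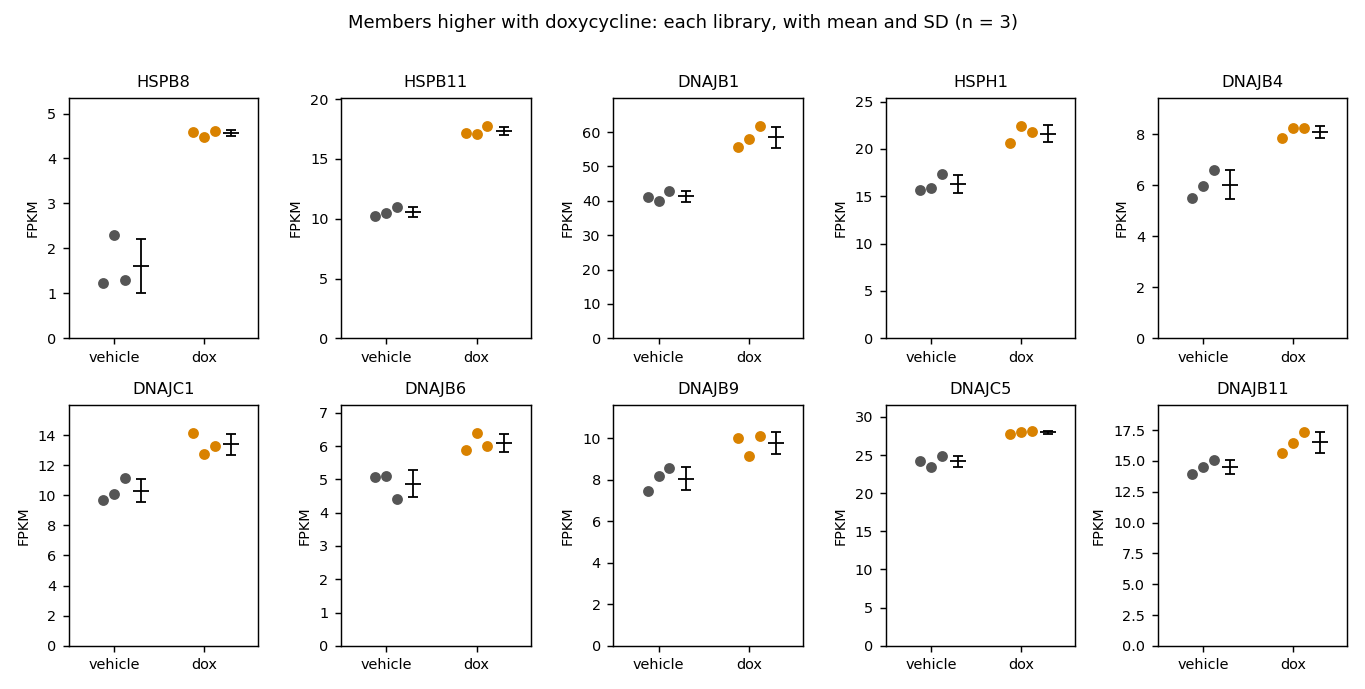
FPKM in each library of the 10 genes called higher with doxycycline (points, libraries; lines and bars, mean and SD, n = 3; axes start at 0). In all 10 panels the doxycycline libraries lie above the vehicle libraries, with the widest relative gap in HSPB8 and a narrow one in DNAJB11.

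The DNAJA genes, whose proteins carry the full zinc finger of the bacterial DnaJ, were not called. DNAJA1, the most abundant J-domain gene, stood at 88.6, 87.9 and 99.3 FPKM with vehicle and at 97.9, 101 and 103 FPKM with doxycycline. Vehicle replicate 3 lay inside the doxycycline range, and the gene was not called (log2 difference 0.13, 95% interval 0.00 to 0.26, adjusted p = 0.113) except when that library was left out (0.19, adjusted p = 0.0173). DNAJA2 was at 33.6 ± 0.497 FPKM and 35.8 ± 0.961 FPKM without overlap (adjusted p = 0.0840). DNAJA3, the mitochondrial member, was at 7.94 ± 0.554 FPKM and 7.76 ± 0.881 FPKM, in overlapping ranges.

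Of the 24 tested DNAJC genes, a class defined only by the J domain, 2 rose and 1 fell (median log2 difference -0.02). This is 12.5% called, beside 28.8% of all tested genes. DNAJC12 (chromosome 10, 69556423 to 69597924), a small cytosolic J protein, stood at 5.88, 5.18 and 5.52 FPKM with vehicle and at 2.91, 2.48 and 2.94 FPKM with doxycycline. The highest doxycycline library was well below the lowest vehicle library, and the mean was 1.99-fold lower (log2 difference -0.79, SE 0.07, adjusted p = 6.23e-04), the largest called decrease among the 59 genes. DNAJC1 (ERdj1), an ER membrane protein whose J domain faces BiP, stood at 9.67, 10.1 and 11.2 FPKM with vehicle and at 14.1, 12.7 and 13.2 FPKM with doxycycline, without overlap (1.30-fold, log2 difference 0.35, adjusted p = 0.0102). DNAJC5, the cysteine string protein of secretory vesicles, stood at 24.2, 23.4 and 24.9 FPKM with vehicle and at 27.8, 28.0 and 28.1 FPKM with doxycycline. Its groups were also apart, with little spread in either (1.16-fold, log2 difference 0.20, adjusted p = 0.00571).

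Several DNAJC genes had 1 library that stood apart from the others of its group. DNAJC22, a membrane J protein, stood at 5.81, 13.9 and 14.8 FPKM with vehicle and at 5.01, 4.83 and 5.25 FPKM with doxycycline. Vehicle replicate 1 was near the doxycycline level, although the groups did not overlap. The mean was 2.29-fold lower, but the log2 difference of -0.96 (95% interval -1.74 to -0.18) did not pass the test (adjusted p = 0.0723), and without vehicle replicate 1 it did (-1.35, adjusted p = 2.70e-04). DNAJC9, a J protein that binds histones, stood at 12.6, 12.7 and 12.8 FPKM with vehicle and at 13.5, 14.8 and 26.3 FPKM with doxycycline, where replicate 3 was far above the others (log2 difference 0.42, 95% interval -0.15 to 1.00, adjusted p = 0.230). Without that library the difference of DNAJC9 was 0.14. It shares its position with MRPS16 on the same strand, so some of its fragments could belong to that gene. DNAJC16 stood at 6.62, 6.20 and 6.49 FPKM with vehicle and at 7.31, 3.50 and 7.03 FPKM with doxycycline, with replicate 2 as the low value, and the sign of its log2 difference turned from -0.15 to 0.14 without that library. DNAJC9 and DNAJC16 were named after their values had been seen.

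The most abundant DNAJC genes of the other compartments were not called. DNAJC3 (p58IPK), a BiP partner of the ER lumen, stood at 18.4, 18.8 and 19.3 FPKM with vehicle and at 19.5, 19.7 and 18.9 FPKM with doxycycline (log2 difference 0.03, 95% interval -0.05 to 0.12). DNAJC2, which works at the ribosome, stood at 8.31, 9.20 and 9.29 FPKM and at 8.56, 8.49 and 8.74 FPKM (log2 difference -0.05, adjusted p = 0.529). The ranges of both genes overlapped between the groups. DNAJC8, a splicing-associated nuclear protein, stood at 26.1, 23.7 and 25.0 FPKM and at 25.5, 27.3 and 26.4 FPKM (0.08, adjusted p = 0.250). DNAJC11, a mitochondrial protein, stood at 21.7, 21.3 and 22.8 FPKM and at 21.5, 22.0 and 25.9 FPKM (0.07, adjusted p = 0.522), with a change of sign to -0.01 without doxycycline replicate 3. These ranges overlapped as well. The other 14 tested DNAJC genes had log2 differences from -0.22 (DNAJC14, adjusted p = 0.514) to 0.12 (DNAJC10, adjusted p = 0.583), and none was called. Among them only DNAJC19, a part of the mitochondrial import motor, had groups that did not overlap, at 5.37, 5.13 and 6.27 FPKM with vehicle and at 5.03, 4.40 and 4.78 FPKM with doxycycline (log2 difference -0.20, adjusted p = 0.123). DNAJC28 and HSF2BP stayed below 1 FPKM in every library.

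Outside the chaperones, HSPB11 (IFT25, chromosome 1, 54382247 to 54411602) rose from 10.3, 10.5 and 11.0 FPKM with vehicle to 17.2, 17.1 and 17.7 FPKM with doxycycline. The spread within each group was small beside the gap, and the mean was 1.64-fold higher (log2 difference 0.66, SE 0.04, adjusted p = 1.14e-04). It carries an HSPB symbol and is counted among the 10 genes that rose. Without it, HSF2BP and the readthrough entries, 9 rose and 7 fell.

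In summed level the family changed little. The 63 genes summed to 3046, 3022 and 3137 FPKM with vehicle and to 2871, 2991 and 2998 FPKM with doxycycline, or 1.46%, 1.48% and 1.53% of each library's FPKM against 1.38%, 1.43% and 1.46%. Doxycycline replicate 3 reached the share of vehicle replicate 1, and 5 genes (HSP90AB1, HSPD1, HSP90AA1, HSPA5 and HSP90B1) held 57.9% to 62.2% of the sum. The 13 ER genes summed to 641, 647 and 657 FPKM with vehicle and to 572, 589.8 and 578 FPKM with doxycycline, 10.5% lower in the mean. The 8 mitochondrial genes summed to 679.8, 656 and 677 FPKM and to 607, 618 and 616 FPKM, 8.53% lower. The cytosolic sum was 1616 ± 43.2 FPKM and 1613 ± 53.6 FPKM, so the groups overlapped there. These sums were not tested and are led by the abundant genes named above, whose direction depends in part on the scaling.

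**Figure D4:**
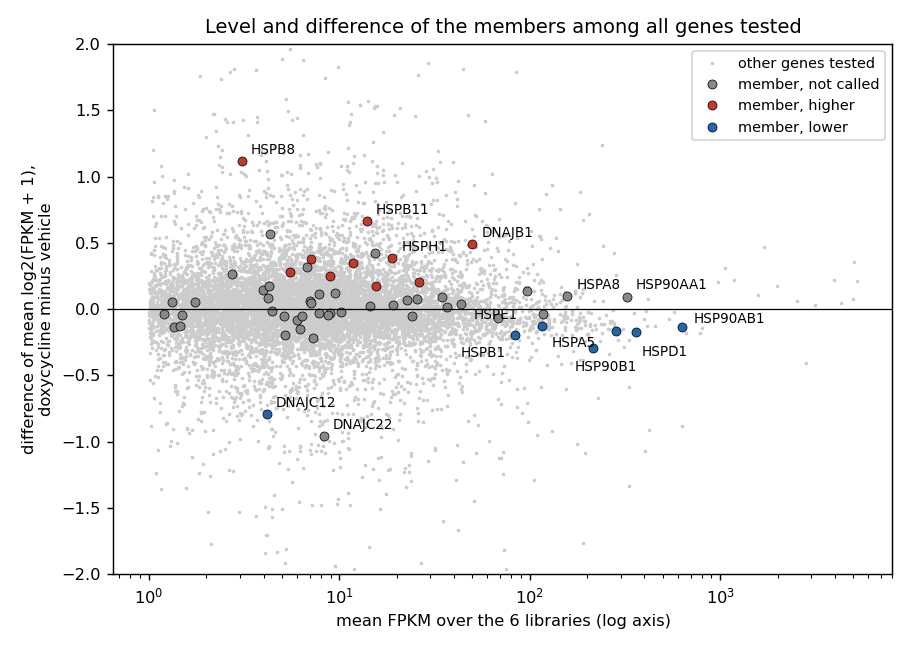
Mean FPKM over the 6 libraries (log axis) against the difference of mean log2(FPKM + 1), doxycycline minus vehicle, for the 59 genes (large points, coloured by call) and all other tested genes (small grey points; 16 genes lie outside the axis limits of ±2). The genes called higher have means of up to 49.9 FPKM (DNAJB1), and 6 of the 7 called lower have means from 83.4 FPKM (HSPB1) upwards, 2 of which (HSP90AB1 and HSPD1) turn to higher under quantile normalization.

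Ratios within a library do not depend on a scaling that is common to its genes, and 6 were computed. HSP90AA1 to HSP90AB1 was 0.433, 0.480 and 0.498 with vehicle and 0.514, 0.572 and 0.569 with doxycycline. HSPH1 to HSPA4, both exchange factors, was 0.227, 0.236 and 0.238 against 0.322, 0.340 and 0.310. For both, every doxycycline library was above every vehicle library. DNAJB1 to HSPA8 was 0.268, 0.276 and 0.274 against 0.391, 0.340 and 0.353, likewise higher with doxycycline. HSP90B1 to HSPA5, within the ER, was 0.760, 0.787 and 0.798 against 0.735, 0.712 and 0.703, lower with doxycycline in every library. Each of these 4 ratios had an exact two-sided permutation p of 0.1, which is the lowest possible with 3 libraries a group (0.15 after Benjamini-Hochberg adjustment over 6 ratios), so none could pass a threshold of 0.05. HSPA8 to the sum of HSPA1A and HSPA1B was 1.91 ± 0.0874 and 2.01 ± 0.189 (SD, n = 3 each, exact permutation p = 0.5), with overlap.

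**Figure D5:**
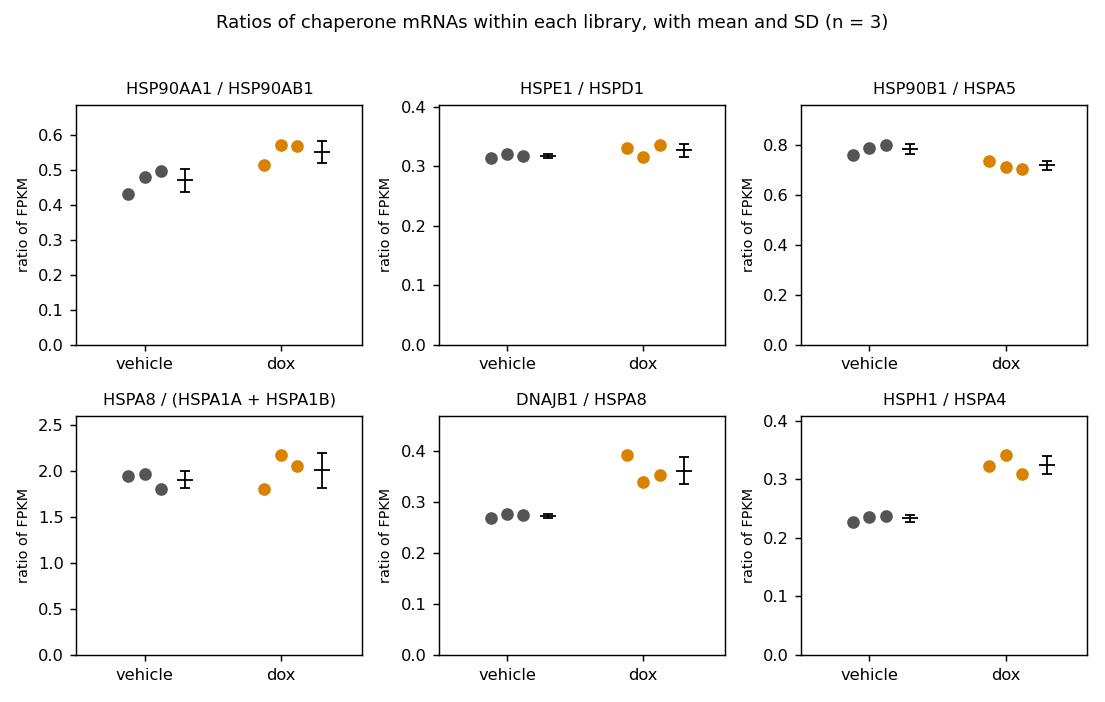
Ratios of FPKM between chaperone genes within each library (points; lines and bars, mean and SD, n = 3; axes start at 0). The groups are apart for HSP90AA1 to HSP90AB1, HSP90B1 to HSPA5, DNAJB1 to HSPA8 and HSPH1 to HSPA4, and overlap for HSPE1 to HSPD1 and for HSPA8 to the sum of HSPA1A and HSPA1B.

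The partner genes of these chaperones were counted from lists made by function. Some genes are counted in more than 1 list, here and in the next paragraph, so the counts are not separate. BAG3, AHSA1, STIP1, CHORDC1 and FKBP4 are listed both as cochaperones and as heat-inducible genes. HYOU1 and SIL1 are listed both with the HSP70 partners and with the ER partners. Of 13 exchange factors and cochaperones of HSP70, 3 rose and 1 fell (median log2 difference 0.08, against 0.01 over all tested genes). Their share of calls, 30.8%, was near the 28.8% of all tested genes. BAG3, which joins HSP70 to HSPB8, rose from 27.8 ± 0.609 to 39.6 ± 2.15 FPKM (SD, n = 3 each; log2 difference 0.50, adjusted p = 6.85e-04), and BAG5, an exchange factor, from 7.79 ± 0.309 to 9.69 ± 0.400 FPKM (adjusted p = 0.00765). BAG4, which also binds HSP70, was lower, at 13.0 ± 0.361 and 11.3 ± 0.221 FPKM (log2 difference -0.19, adjusted p = 0.0121). Of 21 cochaperones of HSP90, 1 rose and 1 fell (median 0.02). These were the myosin chaperone UNC45A (6.73 ± 0.441 and 7.96 ± 0.391 FPKM, adjusted p = 0.0449) and RUVBL1 (13.6 ± 0.256 and 12.4 ± 0.0807 FPKM, adjusted p = 0.0329), an ATPase of the R2TP complex. Over 16 alternatives the call of UNC45A was lost in 9 and that of RUVBL1 in 7, with adjusted p up to 0.123 and 0.0975. Of 14 subunits of the cytosolic chaperonin CCT and of prefoldin, only the prefoldin subunit PFDN4 was called, from 49.9 ± 4.14 to 68.7 ± 1.96 FPKM (log2 difference 0.46, adjusted p = 0.00296). None of 10 mitochondrial chaperone and protease partners was called (median -0.01).

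Of 10 tested heat-inducible genes outside these families, 3 rose and 1 fell (median log2 difference 0.10). BAG3 is one of them, and ZFAND2A, a proteasome-associated zinc finger protein, rose from 8.02 ± 0.303 to 10.6 ± 1.10 FPKM (adjusted p = 0.0172, lost in 5 of 16 alternatives, up to 0.0569). SERPINH1 (HSP47), the collagen chaperone of the ER, fell from 10.5 ± 0.447 to 7.92 ± 0.358 FPKM (adjusted p = 0.00317). Of 14 ER folding partners and stress genes, 7 fell and none rose (median -0.18), and 4 fell and none rose under quantile normalization (median -0.11). The largest called falls in that list were those of XBP1, a transcription factor of the unfolded protein response, from 36.2 ± 0.520 to 27.3 ± 0.711 FPKM, and of PDIA4, a disulfide isomerase, from 188 ± 1.93 to 151 ± 1.74 FPKM (adjusted p = 3.52e-04 and 2.03e-04). Across the 15 tested genes whose promoter window holds the ER stress element, 2 rose and 6 fell (median -0.14), and across the 36 with the heat shock element 3 rose and 9 fell (median -0.03), beside 15.2% higher and 13.6% lower over all tested genes. Outside the families described here, 2 rose and 4 fell of 13 with the ER stress element, some of which are also in the ER list, and 2 rose and 7 fell of 30 with the heat shock element. Under quantile normalization the counts with all families were 2 and 4 for the ER stress element (median -0.06) and 5 and 7 for the heat shock element (median 0.04).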

How the data were processed

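Messenger RNA was sequenced in 6 libraries, 3 a group. Per the labels, polyadenylated RNA was made into stranded libraries. The deposited values are FPKM, 1 column per library. Per the submitters' processing notes, FastQC, cutadapt, HISAT2 and StringTie were used with GRCh37; their versions and options, the annotation and any use of strand in counting are not given in the sources used here. Depth is unknown, so no counting interval is given.

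Of 11461 entries, 11456 symbols remained, with the highest mean kept for repeated symbols. Genes averaging 1 FPKM or more, 10469 in all, were fitted in limma 3.58.1 (R 4.3.3) on log2(FPKM + 1), with group as the only term and a variance trend. Tests were two-sided with Benjamini-Hochberg adjustment over all these genes, and calls needed an adjusted p below 0.05. Folds are ratios of mean FPKM, and log2 differences are doxycycline minus vehicle on the log2(FPKM + 1) scale, which understates changes of weak genes. Values with ± are means and SD of 3 libraries. The fit was also run on simulated data with independent normal noise and planted effects. Such data cannot address the dependence on scaling or whether the spread among libraries is technical. Ratios were compared by exact permutation tests with scipy 1.17.1, and figures were drawn with matplotlib 3.10.9.

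The members, partner lists and tests were chosen with earlier results of these data known. Per-library values are given for HSF1, HSF2, NR1I3, the called members and the most abundant member of each compartment and family class with at least 2 members; of each partner list, up to 2 called genes per direction are named by absolute difference. Other named genes, and the values of HSP90AA1, HSPA9 and HSPB2 by library, were chosen after their values were seen. Families and compartments were assigned from general knowledge. 1 gene outside the families is not reported here. Members sharing a position with another listed gene are uncertain. Motif windows came from RefSeq on GRCh38.p14 by symbol, and no coordinate was converted between builds.

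Alternatives were pseudocounts of 0.1 and 0.5, no filter, a minimum mean of 5 FPKM, median-ratio scaling, quantile normalization, no variance trend, a robust fit, a block for replicate number, HSPA1A and HSPA1B summed, and leaving out each library in turn. Leaving out members that overlap another gene, and entries that are no chaperone gene, was added after seeing the data.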

Additional observations from a re-analysis of the deposited data

How the results depend on the processing

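Members called numbered 14 to 18 over these alternatives, against 17, and 14 to 16 when 1 library was left out (7 to 10 higher, 6 to 8 lower; all genes 2309 to 2376, against 3012). Under quantile normalization 4 members were called lower, HSP90AB1 (0.15) and HSPD1 (0.10) turned to higher, HSPA12A turned to -0.0018 and 12 members were higher. Median-ratio scaling gave 10 higher and 7 lower. Without members that overlap another listed gene, chosen after seeing the data, 37 were tested and 10 called (6 higher, 4 lower), a smaller count by construction. Of the 17 called members, 10 kept their call under every alternative in which they were tested (16, or 15 for HSPB8 and DNAJC12, which are under the minimum of 5 FPKM), 5 (DNAJB6, DNAJB9, DNAJB11, HSPE1 and HSPA5) lost it in some and 2 reversed, HSP90AB1 and HSPD1, where the cause was not tested.

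With the replicate number as a replicate block, 17 members were called (10 higher, 7 lower) and 2343 of all genes. DNAJB9 was then not called (adjusted p = 0.0646) and HSPE1-MOB4 was (0.00954). Deviations of libraries with the same number correlated at 0.02, -0.03 and 0.09, the last being the highest of all pairs. Not every library correlated best with its own number. With 3 libraries a group these values cannot decide whether libraries of the same number were handled together.

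Signs of 14 uncalled members turned when 1 library was left out, over these ranges of the log2 difference: DNAJA3 -0.11 to 0.032, DNAJC4 -0.052 to 0.027, DNAJC6 -0.044 to 0.14, DNAJC10 -0.014 to 0.23, DNAJC11 -0.0084 to 0.12, DNAJC13 -0.049 to 0.019, DNAJC16 -0.31 to 0.14, DNAJC25 -0.11 to 0.013, DNAJC27 -0.069 to 0.0068, DNAJC30 -0.0017 to 0.14, HSF1 -0.052 to 0.17, HSPA1A -0.047 to 0.068, HSPA1B -0.0099 to 0.11 and HSPA12A -0.023 to 0.061. Weak genes are limited by an unknown depth.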

Other observations

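The overlapping pair of small heat shock genes HSPB2 and CRYAB was near the lower end of the table. CRYAB, known as alpha B-crystallin, was at 0.440 ± 0.105 FPKM with vehicle and at 1.34 ± 0.276 FPKM with doxycycline (SD, n = 3 each), under the minimum for testing. With no filter on low values, HSPB2 had a log2 difference of 0.52 (adjusted p = 0.0443). Whether fragments of these genes were assigned by strand in the deposited values is not known here.

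The coefficient of variation in the more variable group was 118% for HSPB2, which was not tested. Among the tested members it reached 43.1% for DNAJC22, 38.7% for DNAJC9, 37.6% for HSPB8 and 35.7% for DNAJC16, and was 1.31% for HSP90AB1 and 2.18% for HSPA5.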
